A study of Mus musculus with 18 samples.

Results

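The 10 genes studied here are shared by the endothelial cells that line blood vessels and were followed in the mouse heart after a single high dose of ionizing radiation (IR). They were chosen by name from a list of pan-endothelial junction and identity genes: Cdh5, Pecam1, Esam, Cldn5, Emcn, Ecscr, Tie1, Robo4, Eng and Egfl7. All 10 were found by Ensembl identifier among the 30072 genes of the deposited tables, and all 10 passed the filter on low counts. RNA was sequenced from the cardiac septum of 18 CD-1 mice, an outbred strain (the labels add a mixed background), of both sexes and at least 8 weeks old. Of these, 6 mice received anesthesia and, per the study's methods, CT imaging, but not the radiation dose to the heart (control). Another 6 were examined 2 weeks after 25 Gy under isoflurane, and 6 were examined 6 weeks after the same dose. No transgene was used, each library came from 1 mouse, littermates were used without the litter being given per mouse, and the control mice serve both time points, so the comparisons at 2 and 6 weeks are not independent of each other.

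Endothelial cells are held together by adherens junctions, built around VE-cadherin (the product of Cdh5), and by tight junctions, in which claudin-5 (Cldn5) seals the cleft between cells. PECAM-1 (Pecam1) and ESAM (Esam) are immunoglobulin-family adhesion molecules that gather at the same contacts and also steer the passage of leukocytes. Endomucin (Emcn) and ECSCR (Ecscr) are endothelial surface glycoproteins, Tie1, Robo4 and endoglin (Eng) are receptors or co-receptors at the endothelial surface, and EGFL7 (Egfl7) is secreted by endothelial cells into the matrix around them. In the heart, capillary endothelial cells lie beside nearly every cardiomyocyte, so RNA from the septum holds transcripts of both.

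The 18 libraries held 11522987 to 15501019 estimated counts each, and no 2 libraries were copies of one another. The members were covered by at least 93 counts in every mouse (Ecscr) and by up to 7926 (Cdh5), and counting error weighs most for Ecscr and for Cldn5 (109 to 306 counts). The labelled tissue was checked by its markers, of which Myh6, the alpha myosin heavy chain of cardiomyocytes, lay between 11182.8 and 22749.1 CPM (counts scaled to library size, here adjusted by the trimmed mean of M-values method, TMM) in all mice. The median share of counts from mitochondrially encoded genes was 23.2% in control mice, 20.2% at 2 weeks and 17.4% at 6 weeks, and TMM factors differed between groups, from 0.844 to 0.991 in control mice, from 0.962 to 1.03 at 2 weeks and from 1.04 to 1.13 at 6 weeks. With library size as the only scaling, all genes together had a median log2 fold change of 0.15 at 2 weeks and 0.24 at 6 weeks, against -0.00 and -0.02 with TMM, and the split of genes called at 6 weeks went from 2029 higher and 1731 lower to 5494 higher and 326 lower (at 2 weeks from 465 and 290 to 1707 and 82, and between 6 and 2 weeks from 499 and 303 to 1098 and 104). A log2 fold change below is therefore relative to the TMM scale, and a member whose call depends on it is named.

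At 6 weeks, 6 of the 10 endothelial genes had risen and 1 had fallen. Pecam1, Robo4, Ecscr, Cdh5, Eng and Esam were 1.27 to 1.86 times the control level, Tie1 was at 0.739 of it, and Emcn, Cldn5 and Egfl7 did not pass the test (edgeR quasi-likelihood F test, Benjamini-Hochberg adjusted P under 0.05 over 15054 genes, n = 6 mice per group). Of all genes tested, 25.0% were called in this comparison, 13.5% as higher and 11.5% as lower. At 2 weeks, 2 members were called, Pecam1 as higher and Tie1 as lower, where 5.02% of all genes were called (3.09% as higher and 1.93% as lower). Between 2 and 6 weeks, 5 members were higher at 6 weeks and none was lower (by edgeR, and none by DESeq2, while at an unadjusted P under 0.05 edgeR gave 1, Tie1), where 5.33% of all genes were called (3.31% as higher and 2.01% as lower). With library size as the only scaling, 3 members were called at 2 weeks (Pecam1, Ecscr and Eng), 8 at 6 weeks (the 6 that rose, with Emcn and Egfl7) and 6 between the time points (the 5 and Robo4), all as higher. The share of all genes called higher and lower was then 11.3% and 0.545%, 36.5% and 2.17%, and 7.29% and 0.691% in these comparisons. The median log2 fold change of the members was 0.14 at 2 weeks and 0.43 at 6 weeks against control, and 0.29 at 6 weeks against 2 weeks. With TMM scaling, no member reached an absolute log2 fold change above 1 in any comparison, whereas at 6 weeks against control Pecam1 was at 1.16 with library size alone and at 1.26 on the log2(TPM + 1) scale, and Robo4 at 1.02 on the log2(TPM + 0.1) scale. On these TPM scales all genes together had a median log2 fold change of 0.29 and 0.37 at 6 weeks. In bulk tissue, fewer cells of a type and less RNA per cell cannot be told apart, and the same holds for more cells and more RNA.

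**Figure D1:**
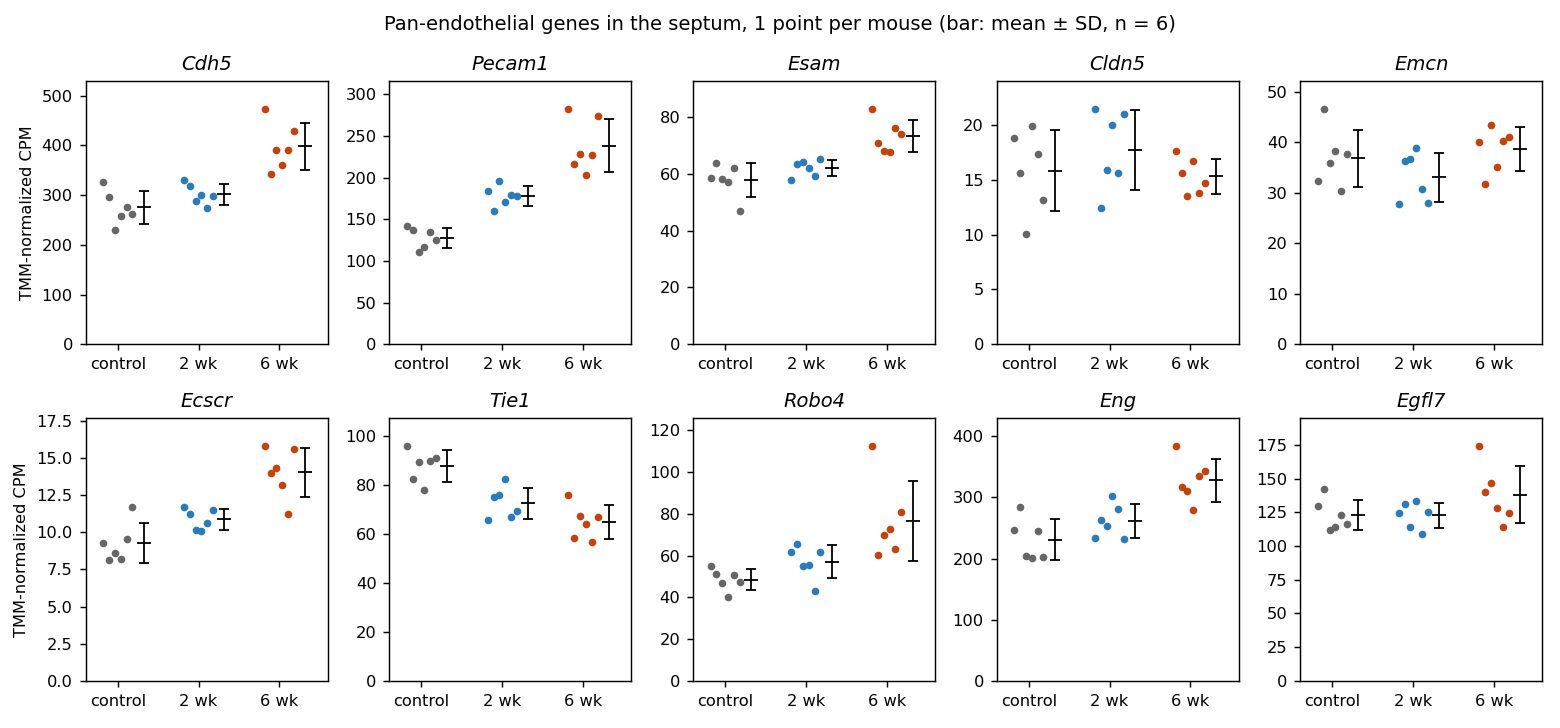
TMM-normalized CPM of each of the 10 genes on the y axis (from 0, a separate scale per gene) against group on the x axis, with 1 point per mouse and the mean ± SD beside it (n = 6). Pecam1 is higher in each group than in the one before it without overlap, Tie1 is lower at 6 weeks than in every control mouse, and the groups overlap for Cldn5, Emcn and Egfl7.

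Per transcript length, the members were not equally abundant. In TPM (transcript abundance per length), which allows genes of different length to be compared, Egfl7 had the highest level in control mice (188 ± 27.3 TPM, SD, n = 6), followed by Eng (76.7 ± 10.7), Cdh5 (67.6 ± 13.1), Pecam1 (40.3 ± 6.18), Esam (37.9 ± 5.84), Emcn (24.1 ± 2.73), Tie1 (21.0 ± 2.81), Robo4 (12.4 ± 2.01), Ecscr (11.8 ± 1.80) and Cldn5 (10.3 ± 3.40). Along this order the ranges over mice were apart only between Egfl7 and Eng, between Cdh5 and Pecam1, and between Tie1 and Robo4. The other neighbours overlapped in TPM. At 6 weeks Egfl7 was still first (260 ± 44.6 TPM) and Cldn5 last (12.8 ± 1.74 TPM), while Tie1 had gone from place 7 to place 9, behind Robo4 (25.6 ± 7.11 TPM) and Ecscr (23.3 ± 3.73 TPM). In TPM, Tie1 itself was near its control level at 6 weeks (20.15 ± 2.99 TPM), whereas every other member had a higher mean than in control mice. TPM is scaled within a library only, and most genes that moved in TPM were higher at 6 weeks. On the log2(TPM + 1) scale all genes together had a median log2 fold change of 0.29. Of 15054 genes, 7354 were called higher and 118 lower on that scale. Tie1 lay above Robo4 in all 6 control mice and below Ecscr in all 6 mice at 6 weeks, although the ranges of Tie1 and Ecscr over mice still overlapped there. As a share of the summed TPM of the 10 genes, Egfl7 made up 38.3% ± 1.13 in control mice and 32.3% ± 2.43 at 6 weeks, Pecam1 8.23% ± 0.433 and 12.3% ± 0.808, and Tie1 4.31% ± 0.449 and 2.51% ± 0.110.

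The promoters of 4 members are shown, because for these members a long stretch of the listed window lies before every annotated start and because they differ in their response: Eng and Robo4 rose at 6 weeks, whereas Emcn and Cldn5 did not pass the test. The sequences are from RefSeq (GRCm38.p6, plus strand) and end at the base before the annotated start: chr2:32646345-32646594 for Eng, chr9:37401722-37401896 for Robo4, chr3:137340828-137341066 for Emcn and chr16:18776597-18776846 for Cldn5. Capitals mark GGAA, or TTCC for GGAA on the other strand, the core letters bound by ETS factors, a family that includes known endothelial regulators.
Eng: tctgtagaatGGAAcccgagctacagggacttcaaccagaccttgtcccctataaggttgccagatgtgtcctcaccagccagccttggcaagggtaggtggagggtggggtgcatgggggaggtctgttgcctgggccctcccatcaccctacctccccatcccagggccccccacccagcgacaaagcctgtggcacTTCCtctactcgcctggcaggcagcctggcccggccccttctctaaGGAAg
Robo4: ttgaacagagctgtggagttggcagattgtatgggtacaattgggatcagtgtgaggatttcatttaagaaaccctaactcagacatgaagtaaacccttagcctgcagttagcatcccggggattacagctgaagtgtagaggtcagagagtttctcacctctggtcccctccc
Emcn: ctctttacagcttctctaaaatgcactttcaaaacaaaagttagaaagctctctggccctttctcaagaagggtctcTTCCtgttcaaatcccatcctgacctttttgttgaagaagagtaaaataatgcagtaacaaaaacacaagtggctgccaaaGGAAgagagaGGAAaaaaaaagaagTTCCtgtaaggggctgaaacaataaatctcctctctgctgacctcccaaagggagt
Cldn5: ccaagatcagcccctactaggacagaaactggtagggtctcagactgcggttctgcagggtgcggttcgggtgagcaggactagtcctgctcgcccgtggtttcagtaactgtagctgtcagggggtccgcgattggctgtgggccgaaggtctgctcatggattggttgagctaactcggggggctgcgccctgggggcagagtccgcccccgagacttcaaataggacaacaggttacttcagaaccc

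The Emcn stretch held 4 such sites, the Eng stretch 3, and those of Robo4 and Cldn5 none. In the whole RefSeq window of 300 bases around each start, which was found for 6 of the 10 members with 8 starts, the count of GGAA on either strand was 9 for Tie1, 6 for Emcn, 4 for Robo4, 4 for Eng, 5, 4 and 1 for the 3 starts of Egfl7, and 0 for Cldn5. Of all 32841 mouse windows of this length, 96.0% held GGAA at least once, with a median of 3 sites, and 15.7% held 6 or more. The longer AGGAAG, which contains GGAA, occurred in 35.4% of all windows and in those of Emcn, Egfl7 (2 of 3 starts), Robo4, Eng and Tie1. CGGAAG (16.9% of all windows) occurred once, in Tie1, and TATAAA (13.6%) in none. A match is a description of these letters and not of binding.

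Among the junction genes, Cdh5 (ENSMUSG00000031871, chr8:104101625-104144511, GRCm38) encodes the cadherin that defines the endothelial adherens junction. Its level ran from 231 to 327 CPM in control mice (median 269), from 273 to 331 at 2 weeks (median 299) and from 343 to 473 at 6 weeks (median 391). Every mouse at 6 weeks lay above every control mouse and every mouse at 2 weeks, while control and 2-week mice overlapped. Against control, Cdh5 rose by 0.53 on the log2 scale (SE 0.0854, adjusted P = 0.000197) at 6 weeks, and the 6-week level exceeded that at 2 weeks by 0.40 (SE 0.0852, adjusted P = 0.0150). At 2 weeks the log2 fold change against control was 0.13 with a 95% interval of -0.05 to 0.31 (adjusted P = 0.409).

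Pecam1 (ENSMUSG00000020717, chr11:106654217-106750628), which encodes CD31, an adhesion molecule of endothelium that platelets and leukocytes also carry, had the largest log2 fold change of the 10 genes at both times on the TMM scale. Control mice had 111 to 142 CPM (median 129), mice at 2 weeks 160 to 196 (median 179) and mice at 6 weeks 203 to 282 (median 228). The 3 groups did not overlap in any pair. Pecam1 rose by 0.48 on the log2 scale (SE 0.0838, adjusted P = 0.00366) at 2 weeks and 0.90 (SE 0.0841, adjusted P = 9.83e-07) at 6 weeks against control, and by 0.42 (SE 0.0834, adjusted P = 0.0100) between the time points. These 3 calls held under all 12 other settings tried and with any 1 of the 18 mice left out.

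Esam (ENSMUSG00000001946, chr9:37528078-37538319), a partner of the tight junction, had 46.8 to 63.7 CPM in control mice (median 58.3), 57.7 to 65.3 at 2 weeks (median 62.7) and 67.7 to 82.7 at 6 weeks (median 72.4). All mice at 6 weeks lay above all others. Against control, Esam rose by 0.34 on the log2 scale at 6 weeks (SE 0.0694, adjusted P = 0.00135). The rise from 2 to 6 weeks was 0.24 (SE 0.0692) and close to the threshold (adjusted P = 0.0496), and it kept its call with only 4 of the 18 mice left out in turn (control mice 2, 4 and 6, and mouse 4 at 6 weeks), with adjusted P up to 0.118 otherwise. At 2 weeks the log2 fold change was 0.10 (interval -0.04 to 0.25, adjusted P = 0.432).

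Cldn5 (ENSMUSG00000041378, chr16:18776847-18778262), a gene of 1 exon whose product forms the tight junction strand, was not called in any comparison. It had 10.1 to 19.9 CPM in control mice (median 16.4), 12.4 to 21.4 at 2 weeks (median 17.9) and 13.5 to 17.6 at 6 weeks (median 15.1). The 3 groups overlapped throughout. The log2 fold change was 0.16 at 2 weeks (interval -0.16 to 0.48) and -0.05 at 6 weeks (interval -0.37 to 0.27, adjusted P = 0.850), with the sign at 6 weeks turning to 0.20 when library size alone was used. Its promoter stretch shown above held no GGAA.

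Of the surface glycoproteins, Ecscr was called at 6 weeks and Emcn was not. Ecscr (ENSMUSG00000073599, chr18:35713086-35722356), which encodes a regulator of endothelial migration and survival, had 8.17 to 11.7 CPM in control mice (median 8.96), 10.1 to 11.7 at 2 weeks (median 10.9) and 11.3 to 15.8 at 6 weeks (median 14.2). Of the 6 mice at 6 weeks, 5 lay above every control mouse. Ecscr rose by 0.60 on the log2 scale (SE 0.0996, adjusted P = 0.000252) at 6 weeks against control and by 0.37 (SE 0.0978, adjusted P = 0.0357) from 2 to 6 weeks. The latter call was lost when any of 8 single mice was left out (2-week mice 2 to 6 and 6-week mice 1, 3 and 6; adjusted P up to 0.0806). At 2 weeks the log2 fold change was 0.23 (interval 0.02 to 0.44, adjusted P = 0.197).

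Emcn (ENSMUSG00000054690, chr3:137341067-137432185) encodes a sialomucin found mainly on capillary and venous endothelium. It had 30.2 to 46.5 CPM in control mice (median 36.8), 27.7 to 38.9 at 2 weeks (median 33.5) and 31.8 to 43.3 at 6 weeks (median 40.2). The groups overlapped in each comparison. The log2 fold change was -0.15 at 2 weeks (interval -0.38 to 0.08, adjusted P = 0.461) and 0.07 at 6 weeks (interval -0.16 to 0.30, adjusted P = 0.698). With library size as the scaling, the value at 2 weeks was 0.00040 and that at 6 weeks was 0.34 and called, so whether Emcn was higher at 6 weeks depended on the scaling.

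Among the receptors, Tie1 was the only member that fell. Tie1 (ENSMUSG00000033191, chr4:118471191-118490061) encodes the orphan receptor tyrosine kinase that pairs with Tie2, the receptor of the angiopoietins. Control mice had 78.1 to 96.1 CPM (median 89.9), mice at 2 weeks 66.0 to 82.4 (median 72.4) and mice at 6 weeks 56.7 to 76.1 (median 65.5). All 6 mice at 6 weeks and 5 of 6 at 2 weeks lay below every control mouse. In log2 units the change was -0.27 (SE 0.0756, adjusted P = 0.0424) at 2 weeks and -0.44 (SE 0.0758, adjusted P = 0.000384) at 6 weeks, and neither passed with library size alone, at -0.12 and -0.17, or in TPM, at -0.06 and -0.06 on the log2(TPM + 1) scale (adjusted P over the 12 other settings 0.0138 to 0.676 at 2 weeks and 2.73e-06 to 0.654 at 6 weeks). The call at 6 weeks held with any 1 mouse left out. The call at 2 weeks held without control mouse 4, 2-week mouse 4 or 6-week mouse 1, 2, 4 or 5 and was lost without any of the other 12 mice (adjusted P up to 0.0987).

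Robo4 (ENSMUSG00000032125, chr9:37401897-37415115), a roundabout receptor known to stabilize vessels, had 40.0 to 54.8 CPM in control mice (median 49.0), 43.1 to 65.3 at 2 weeks (median 58.5) and 60.5 to 112 at 6 weeks (median 71.4). Each mouse at 6 weeks lay above each control mouse, and the highest, 6-week mouse 1, stood well above the other 5. Robo4 rose by 0.66 on the log2 scale at 6 weeks (SE 0.132, adjusted P = 0.00118), or by 0.52 (adjusted P = 0.00172) without that mouse. Its log2 fold change was 0.23 at 2 weeks (interval -0.04 to 0.51, adjusted P = 0.334) and between the time points 0.43 (interval 0.15 to 0.70, adjusted P = 0.0636). Its promoter stretch above held no GGAA.

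Eng (ENSMUSG00000026814, chr2:32646595-32682669) encodes endoglin, a co-receptor for ligands of the TGF-beta and BMP family. It had 202 to 284 CPM in control mice (median 224), 233 to 303 at 2 weeks (median 258) and 279 to 384 at 6 weeks (median 326). As for Ecscr, 5 of 6 mice at 6 weeks lay above every control mouse. Eng rose by 0.51 on the log2 scale at 6 weeks (SE 0.0954, adjusted P = 0.000723) and differed by 0.18 (interval -0.02 to 0.38, adjusted P = 0.304) at 2 weeks. The rise from 2 to 6 weeks was 0.33 (SE 0.0952) and close to the threshold (adjusted P = 0.0496), and that call held only without control mouse 2, 3, 4 or 6, 2-week mouse 4 or 6-week mouse 4 (adjusted P up to 0.116 otherwise). Its promoter stretch shown above held 3 GGAA sites. Exons of Eng and of Fpgs on the opposite strand share 61 bases, and Fpgs had at most 162 counts in a mouse.

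Egfl7 (ENSMUSG00000026921, chr2:26580014-26593120), the secreted member and the host of the miR-126 hairpin, was not called. It had 112 to 142 CPM in control mice (median 120), 109 to 133 at 2 weeks (median 125) and 114 to 174 at 6 weeks (median 134). The groups overlapped, with 2 of 6 mice at 6 weeks above every control mouse. The log2 fold change was -0.00 at 2 weeks (interval -0.19 to 0.18, adjusted P = 0.994) and 0.17 at 6 weeks (interval -0.02 to 0.35, adjusted P = 0.191), whereas with library size alone it was 0.43 at 6 weeks and called. Its exons share 64 bases with Agpat2 on the opposite strand, which had at most 761 counts in a mouse.

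**Figure D2:**
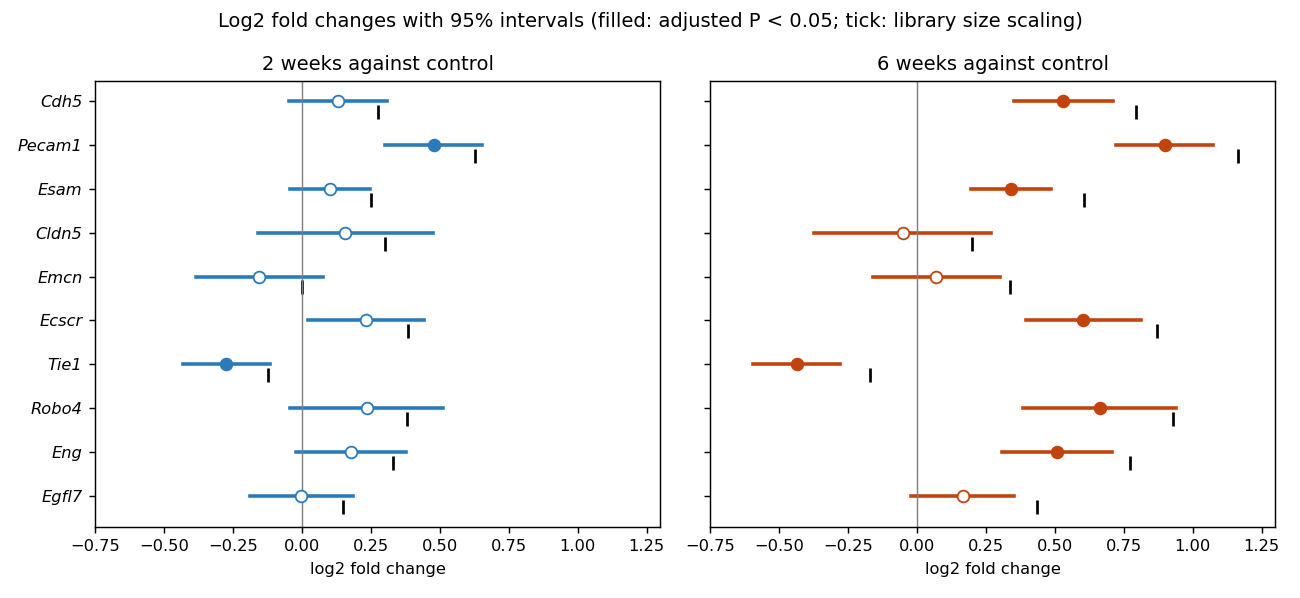
Log2 fold change of each gene (x axis) at 2 weeks (left) and 6 weeks (right) against control, with the 95% interval as a line, filled circles for an adjusted P under 0.05 and a black tick for the value with library size as the only scaling. At 6 weeks the filled circles of 6 genes lie to the right of 0 and that of Tie1 to the left. The open circles of Emcn and Egfl7 lie to the right and that of Cldn5 to the left. Every tick lies to the right of its circle.

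At 6 weeks the irradiated and control groups did not overlap for 5 of the 10 members, wholly above for Pecam1, Cdh5, Esam and Robo4 and wholly below for Tie1, where this held for 9.23% of all genes (5.80% above and 3.43% below). At 2 weeks it held for 1 member, Pecam1, above control, and for 3.24% of all genes (1.96% above and 1.28% below). Between 6 and 2 weeks it held for 3 members, Pecam1, Cdh5 and Esam, all above, and for 3.54% of all genes (2.27% above and 1.27% below). Mouse 1 at 6 weeks had the highest value of its group for 9 of the 10 members. Without it, the same 7 members were called at 6 weeks, with log2 fold changes from -0.49 (Tie1) to 0.84 (Pecam1), but between 6 and 2 weeks only Pecam1 (0.37) and Cdh5 (0.34) of the 5 members were still called.

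**Figure D3:**
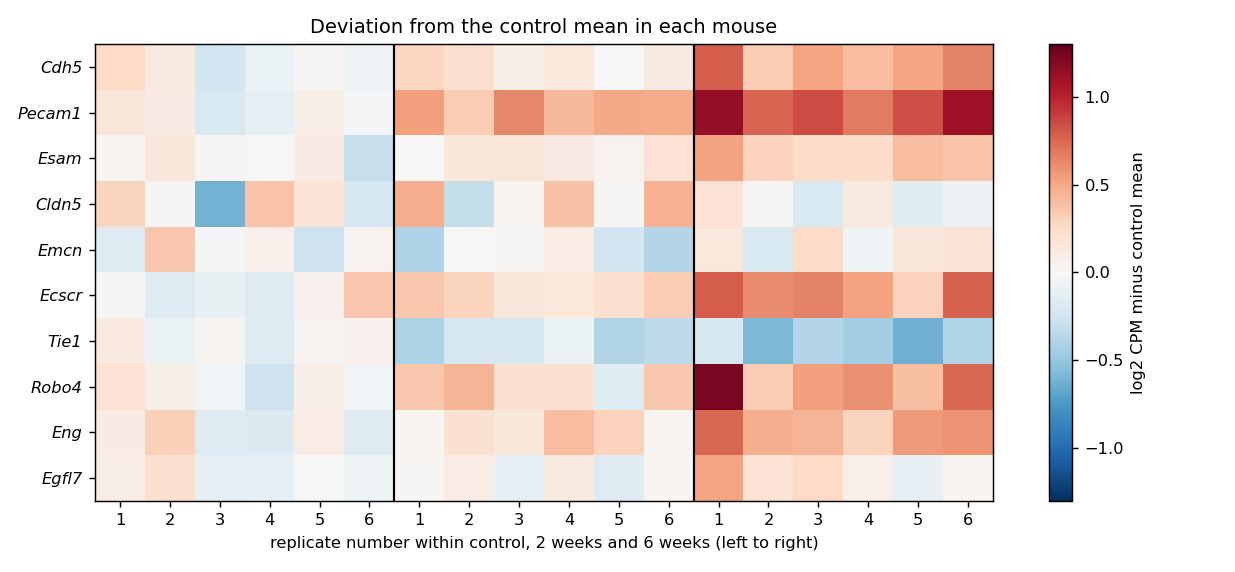
Log2 CPM of each gene (rows) in each mouse (columns, replicates 1 to 6 of the control, 2-week and 6-week groups from left to right) minus the control mean, with red above and blue below. Mouse 1 of the 6-week group has the highest value of its group in 9 of 10 rows, including Tie1, where it is the least blue. The Pecam1 row is red in all irradiated mice and the Tie1 row is blue in all of them.

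To compare the members with each other without any scaling between mice, each was divided by Cdh5 within the mouse (log2 ratio of estimated counts, each + 0.5). Differences between groups were tested by a two-sided exact permutation test over 924 relabellings, whose smallest P is 0.00216, and adjusted over the 27 ratios. Of the 27, 9 passed. A ratio moves with Cdh5 as well as with the other gene, and Cdh5 itself rose by 0.53 on the log2 scale at 6 weeks against control. Relative to Cdh5, Pecam1 was higher at 2 weeks by 0.34 and at 6 weeks by 0.36 (both exact permutation adjusted P = 0.0117, higher in 6 of 6 mice), and between the time points the log2 difference was 0.02 (adjusted P = 0.872). Tie1 was lower relative to Cdh5 by a log2 difference of -0.41 at 2 weeks, -0.97 at 6 weeks and -0.56 between them (exact permutation adjusted P = 0.0117 each), with no overlap of mice in any of the 3 comparisons. The mean log2 ratio of Tie1 to Cdh5 was -1.64 ± 0.178 (SD, n = 6) in control mice, -2.05 ± 0.161 at 2 weeks and -2.61 ± 0.106 at 6 weeks.

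The 3 genes whose own fold changes were not called at 6 weeks were lower relative to Cdh5 at 6 weeks. Their own log2 fold changes were -0.05 (Cldn5), 0.17 (Egfl7) and 0.07 (Emcn), while Cdh5 rose by 0.53, so these ratios do not show a fall of the 3 genes. The log2 difference from control was -0.55 for Cldn5 (exact permutation adjusted P = 0.0219), -0.37 for Egfl7 (0.0195) and -0.46 for Emcn (0.0325). Cldn5 was also lower at 6 weeks than at 2 weeks (-0.58, exact permutation adjusted P = 0.0219), whereas at 2 weeks its ratio was 0.04 above control (0.872). The Emcn ratio lost its call without any 1 of 6-week mice 1, 2, 4, 5 or 6 (adjusted P up to 0.0649), and the later Cldn5 ratio lost it without 6-week mouse 5 or 6 (adjusted P 0.0511). Esam, Robo4, Ecscr and Eng were not called relative to Cdh5 in any comparison, with log2 differences at 6 weeks of -0.19, 0.10, 0.07 and -0.02.

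**Figure D4:**
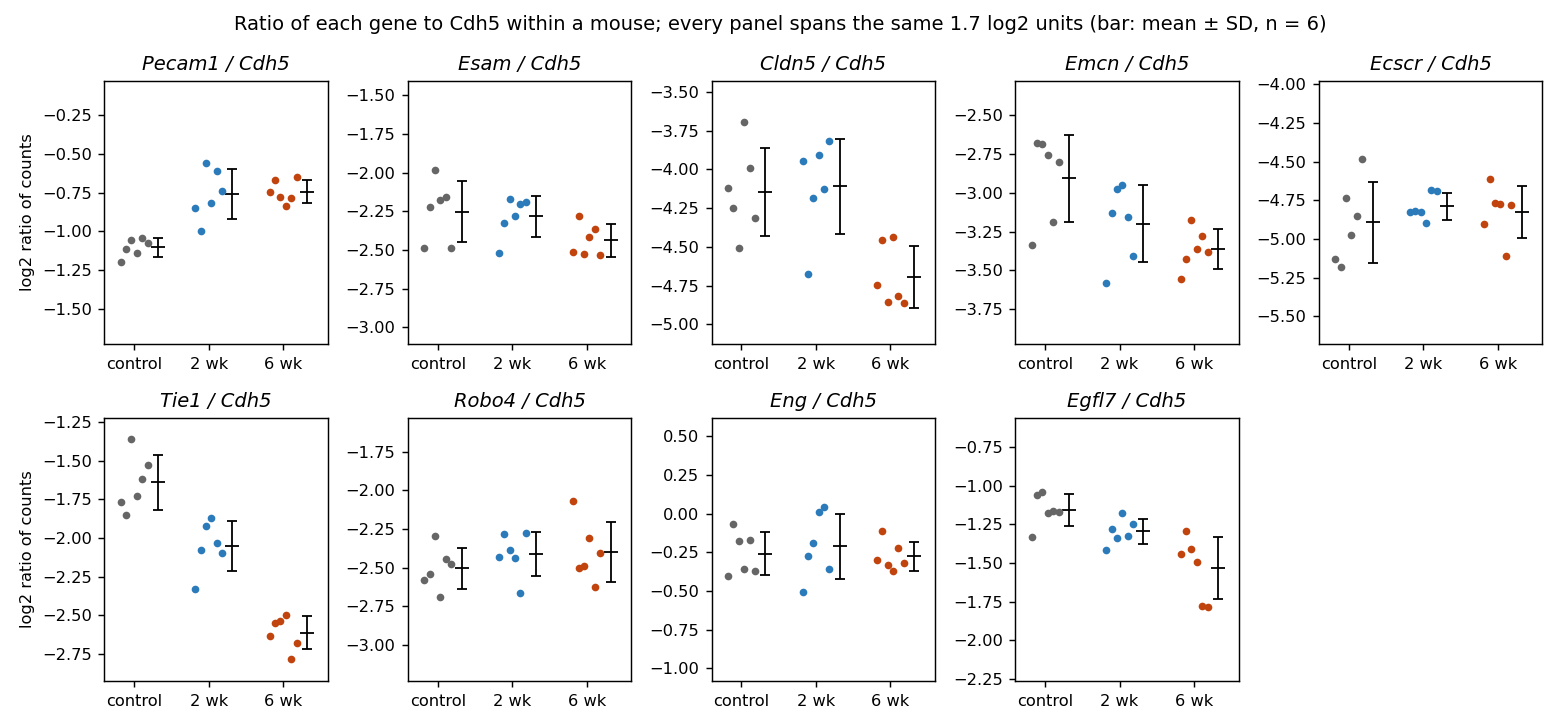
Log2 ratio of each gene to Cdh5 within a mouse (y axis, the same span of log2 units in every panel) by group (x axis), with 1 point per mouse and the mean ± SD (n = 6). The Tie1 ratio falls from -1.64 in control mice to -2.05 and -2.61 with no overlap, the Pecam1 ratio is higher in both irradiated groups, and the Eng ratio has similar means of -0.26, -0.21 and -0.28.

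Within groups the members varied together only in part. After each group was centred on its mean, 40 of the 45 pairs of members had a positive Pearson correlation of log2 CPM over the 18 mice, with a median of 0.35 and a range of -0.37 to 0.77. The mice share library depth and scaling across genes, so these values are a description. Cdh5 (r = 0.86), Robo4 (0.84), Egfl7 (0.79) and Pecam1 (0.78) followed the mean profile of the members most closely, a profile they are part of, and Emcn (0.29), Ecscr (0.34) and Cldn5 (0.35) least. Outside the list, the 5 genes with the most similar within-group profile were Sept9 (r = 0.82), Mphosph9 (0.81), Sparcl1 (0.81), Nrep (0.80) and Pcdh1 (0.79).

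The partners of these genes did not all go the way of the members. Of 20 junction partners tested (cytoplasmic binders of cadherins, zonula occludens proteins and other junction molecules, of 21 listed), 3 were higher and 7 lower at 6 weeks, and 2 were higher and 4 lower at 2 weeks. The share of all genes called was 13.5% higher and 11.5% lower at 6 weeks, and 3.09% and 1.93% at 2 weeks. The median log2 fold change was -0.05 at both times. Among those that rose, Cgnl1 (paracingulin) did so by 0.40 at 2 weeks and 0.42 at 6 weeks. Heg1, a junction receptor that is named beyond the rule given below, rose by 0.18 at 6 weeks. That call was close to the threshold (edgeR adjusted P = 0.0466), and limma voom called 2 junction partners higher at 6 weeks, not 3. Jam2 (junctional adhesion molecule B) had a log2 fold change of -0.48 at 2 weeks and -0.60 at 6 weeks, Afdn (afadin) of -0.29 at 2 weeks, and Tjp1 (ZO-1) of -0.31 at 6 weeks, where adjusted P was 0.000149. With library size alone, 8 junction partners were called higher and 1 lower (Jam2) at 6 weeks and 4 higher and 1 lower (Jam2) at 2 weeks. The share of all genes was then 36.5% higher and 2.17% lower at 6 weeks, and 11.3% and 0.545% at 2 weeks. The balance of this list, like that of all genes, depended on the scaling. RNA from the septum does not show which cells transcribed these partners. The 8 cardiomyocyte markers had a median log2 fold change of -0.45 at 6 weeks with TMM. The part of cardiomyocyte RNA in the changes of the junction partners was not tested. Ctnnb1 (beta-catenin), the cytoplasmic partner of VE-cadherin, had a log2 fold change of -0.04 at 6 weeks (adjusted P = 0.673).

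Of 16 partners of the receptors, 6 were higher and 1 was lower at 6 weeks, with a median log2 fold change of 0.19. The share of all genes called was 13.5% higher and 11.5% lower. Angpt2 (angiopoietin-2), a ligand of Tie2, had a mean of 3.58 ± 0.578 CPM in control mice, 6.98 ± 1.50 at 2 weeks and 16.0 ± 3.41 at 6 weeks (SD, n = 6), and the groups did not overlap. It rose by 0.95 on the log2 scale (SE 0.178, adjusted P = 0.00529) at 2 weeks and 2.15 (SE 0.170, adjusted P = 1.53e-07) at 6 weeks. Tek, which encodes Tie2, the partner of Tie1, went from 62.1 ± 5.88 CPM to 47.2 ± 7.04 and 36.8 ± 3.89, with log2 fold changes of -0.40 (adjusted P = 0.0223) and -0.75 (adjusted P = 2.24e-05). Acvrl1 (ALK1), with which endoglin acts, rose by 0.32 at 2 weeks and 0.34 at 6 weeks, and Tgfbr1, a TGF-beta receptor, by 0.47 at 6 weeks. With library size alone, 10 of the 16 were called higher and 1 lower (Tek) at 6 weeks, against 36.5% and 2.17% of all genes. Tek was then not called at 2 weeks.

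Of 16 other pan-endothelial genes, 5 were higher and 2 lower at 6 weeks, and 2 were higher and 1 lower at 2 weeks. The share of all genes called was 13.5% higher and 11.5% lower at 6 weeks, and 3.09% and 1.93% at 2 weeks. The median log2 fold change at 6 weeks was 0.25. Mcam (CD146, an adhesion molecule also found on mural cells) rose by 0.70 at 2 weeks and 1.53 at 6 weeks, and Cd93, a receptor of endothelium and myeloid cells, by 0.57 and 1.03. Icam2, Cd34 and Clec14a rose by 0.74, 0.54 and 0.60 at 6 weeks and are named here after their values were seen. Flt1 (VEGF receptor 1) had a log2 fold change of -0.44 at 2 weeks and -0.67 at 6 weeks, and Vwf (von Willebrand factor) of -0.68 at 6 weeks (adjusted P = 0.00487). Kdr (VEGF receptor 2) had medians of 239, 243 and 237 CPM in the 3 groups. With library size alone, 10 of the 16 were called higher and 1 lower (Flt1) at 6 weeks, against 36.5% and 2.17% of all genes.

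**Figure D5:**
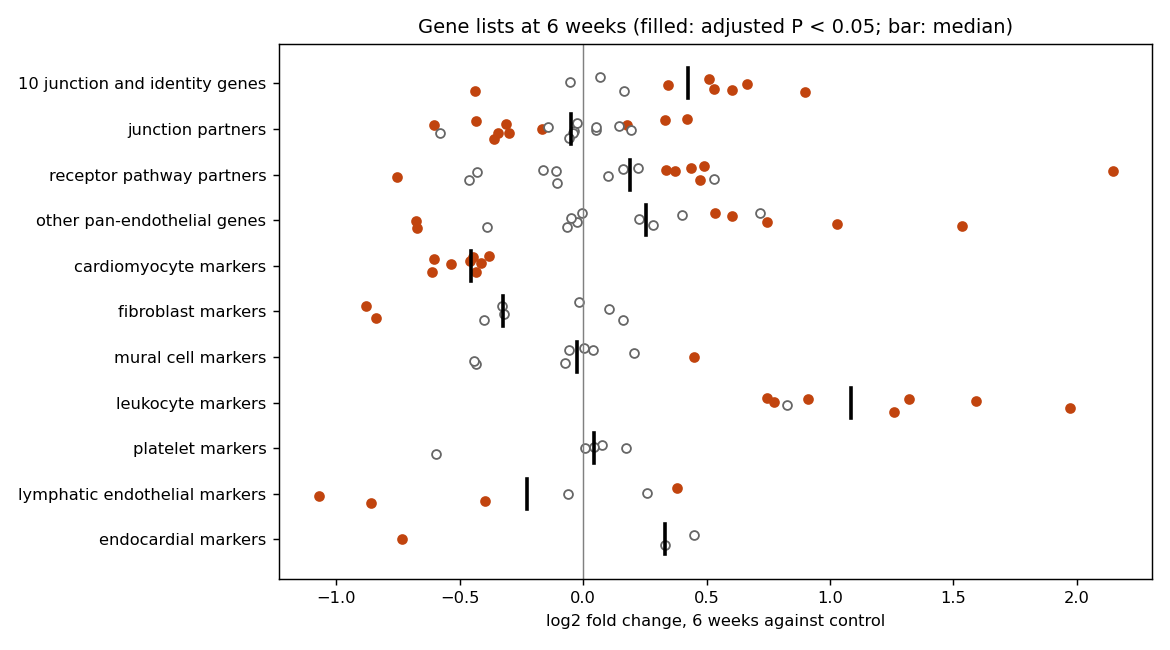
Log2 fold change at 6 weeks against control (x axis) of each tested gene in the members and in 10 lists of partners and cell type markers (rows), with filled points for an adjusted P under 0.05 and a bar at the median. The members have 6 filled points to the right and 1 to the left, the 8 cardiomyocyte markers all lie to the left, and the 8 leukocyte markers all lie to the right.

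Markers of other cell types moved at the same times. For comparison, 13.5% of all genes were called higher and 11.5% lower at 6 weeks, and 3.09% and 1.93% at 2 weeks. With library size alone, 36.5% were called higher and 2.17% lower at 6 weeks. All 8 cardiomyocyte markers were lower at 6 weeks (2 of 8 with library size alone), and their summed level ran from 38295.5 to 59677.9 CPM in control mice, from 41542.6 to 50379.0 at 2 weeks and from 33566.7 to 42586.0 at 6 weeks. The lowest adjusted P in that list was for Ryr2, the calcium release channel, and Actc1, cardiac actin, with log2 fold changes of -0.60 and -0.61, and both stayed called with library size alone. Pln, phospholamban, was lower at 2 weeks (-0.37), though not with library size alone. Of the 8 leukocyte markers, 7 were higher at 6 weeks and 2 at 2 weeks, and their sum went from 124 to 404 CPM in control mice to 253 to 335 and 359 to 489. Ptprc, the pan-leukocyte antigen CD45, rose by 1.01 at 2 weeks and 1.97 at 6 weeks, and Itgam, an integrin of myeloid cells, by 0.71 and 1.32. Pecam1 and Eng are also transcribed in some leukocytes, and the part of leukocyte or cardiomyocyte RNA in the members' changes was not tested.

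None of 5 platelet markers tested, of 7 listed, was called by edgeR or DESeq2 at either time, and 0 had an unadjusted P under 0.05 in either, while their sum was 9.44 to 17.1 CPM in control mice, 11.3 to 17.5 at 2 weeks and 11.9 to 18.9 at 6 weeks. Pf4, the platelet factor 4 gene, had medians of 8.28, 7.25 and 8.23 CPM. In control mice the markers Ppbp, Gp1bb and Itga2b had means of 0.54, 0.48 and 1.09 CPM. At such levels a change could be missed, so the lack of calls does not show that platelet RNA was unchanged. Of 8 mural cell markers 1, Cspg4 (NG2), was higher at 6 weeks by 0.45, near the 13.5% of all genes called higher. Pdgfrb had medians of 142, 153 and 141 CPM, and the mural sum ran from 982 to 1206, from 892 to 1280 and from 849 to 1257 CPM. Of 8 fibroblast markers 2 were lower at 6 weeks, Pdgfra (-0.88) and Gsn (-0.84), with library size too. Pdgfra was also lower at 2 weeks (-0.55), though not with library size alone. Col1a1 had medians of 269, 402 and 378 CPM, with control mice from 170 to 899 CPM. It was not called, with log2 fold changes of 0.15 at 2 weeks and 0.10 at 6 weeks (edgeR adjusted P = 0.840 and 0.850). The fibroblast sum ran from 2465 to 4516, from 2294 to 3219 and from 1990 to 2971 CPM.

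Lymphatic and endocardial endothelium were looked at separately, beside 13.5% of all genes called higher and 11.5% called lower at 6 weeks. Of 6 lymphatic markers, 1 was higher at 6 weeks (Flt4, VEGF receptor 3, 0.38) and 3 were lower (Prox1 -0.40, Ccl21a -1.07 and Mmrn1 -0.86, the last named after its values were seen), of which Prox1 was not called with library size alone. Their sum was 198 to 232 CPM in control mice, 188 to 211 at 2 weeks and 164 to 190 at 6 weeks. Prox1 is also known in cardiomyocytes. Of 3 endocardial markers, 1 was lower at 6 weeks, Npr3 (-0.73), and their sum overlapped between groups (43.4 to 66.4, 40.5 to 60.6 and 39.0 to 61.9 CPM). The summed level of the 10 members was 907 to 1127 CPM in control mice, 1070 to 1176 at 2 weeks and 1241 to 1658 at 6 weeks, and no member was at 0 in any mouse.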

How the data were processed

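RNA from the septum of 18 mice was prepared with the KAPA RNA HyperPrep kit. Per the study's methods, STAR aligned the reads to GRCm38, Salmon 1.0 estimated transcript abundance and tximport gave gene-level values. The estimated counts, as the authors deposited them, carry no scaling between libraries, and 17.6% of those above 0 are not whole (tolerance 0.001). The authors also deposited TPM from Salmon, scaled within a library for length and depth, used here for levels per length and for alternatives. The labels give the tissue as septum and the study's methods as ventricle.

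After rounding to whole counts, edgeR 4.0.16 in R 4.3.3 was used (quasi-likelihood F test, TMM, a minimum of 0.23 CPM in 6 or more mice, 1 fit of 3 groups, Benjamini-Hochberg adjustment per comparison over 15054 genes). A gene was called at adjusted P under 0.05. The code was tested on simulated data with known fold changes. Symbols were assigned by Ensembl identifier (29301 of 30072 genes), and coordinates are from GENCODE M21. Whether the counting used strand is not given in the sources used here.

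The 10 members, the lists and the tests were chosen with earlier results of these data known. All members were named, as were, per list and comparison with controls, up to 2 called genes with the lowest adjusted P in each direction, the 5 genes most like the members and the first marker of each cell type list. A junction partner that met this rule is not reported here. The SE, intervals and P values of the edgeR fit cover counting error and the spread between mice of a group. Alternatives were DESeq2 1.42.0, limma 3.58.1 (voom with weights, and log2 TPM), other scalings, filters, a replicate block, a covariate from Y-linked genes and leaving out each mouse.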

Additional observations from a re-analysis of the deposited data

Results flagged for a closer look

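Of the 10 genes, 5 differed between the time points after irradiation, by the edgeR quasi-likelihood test of 6 weeks against 2 weeks (n = 6 mice each). This comparison called 5.33% of all genes tested, 3.31% as higher and 2.01% as lower. The log2 fold change was 0.42 for Pecam1 (adjusted P = 0.0100), 0.40 for Cdh5 (adjusted P = 0.0150), 0.37 for Ecscr (adjusted P = 0.0357), 0.33 for Eng (adjusted P = 0.0496) and 0.24 for Esam (adjusted P = 0.0496). All 6 mice at 6 weeks lay above every mouse at 2 weeks for Pecam1, Cdh5 and Esam, and 5 of 6 did for Ecscr and Eng. The groups lay wholly apart in this direction for 2.27% of all genes. The calls of Pecam1 and Cdh5 held with any 1 of the 18 mice left out, and those of the other 3 did not.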

How the results depend on the processing

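With any 1 mouse left out, the number of members called was 7 in each case at 6 weeks, 1 to 2 at 2 weeks and 2 to 5 between 6 and 2 weeks, and the number of ratios to Cdh5 called was 7 to 11. Between 6 and 2 weeks the count was 2 without 2-week mouse 2, 3, 5 or 6 or 6-week mouse 1, 3 or 6, and 3 without control mouse 1 or 5, 2-week mouse 1 or 4 or 6-week mouse 5. At 2 weeks the count was 1 with no filter on low counts (366 of all 21258 genes higher, 207 lower). It was 6, all as higher, on the log2(TPM + 1) and log2(TPM + 0.1) scales. On these scales 2774 and 2990 of all 15054 genes were called higher and 39 and 36 lower, against 465 and 290 with TMM. Between 6 and 2 weeks the count of members was 3 without mitochondrially encoded genes (491 of 15336 genes higher, 294 lower). It was 2 with no filter (360 of 21258 genes higher, 207 lower). With an added absolute log2 fold change above 1 it was 0 in every comparison under TMM scaling. With Pecam1 as the reference, 16 of 27 ratios were called. DESeq2, voom, RLE scaling, the literal filter and fits of only the groups compared ended no call of a member.

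Replicate numbers are shared between groups in the labels, but correlations of same-numbered mice ran from -0.08 to 0.11, and 0 to 2 of 6 mice per comparison correlated best with their own number, so the numbers were not taken to pair mice. With the replicate block, 1 member was called at 2 weeks, 7 at 6 weeks and 3 between them. Of all 15054 genes, 357 were then higher and 229 lower at 2 weeks, 1935 and 1614 at 6 weeks, and 352 and 190 between them. Without the block these counts were 465 and 290, 2029 and 1731, and 499 and 303.

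Signs turned only for values that were not called. With library size alone, log2(TPM + 1) and log2(TPM + 0.1), Emcn at 2 weeks was 0.00040, 0.11 and 0.11, Egfl7 at 2 weeks 0.15, 0.19 and 0.19 and Cldn5 at 6 weeks 0.20, 0.34 and 0.37. Tie1 between 6 and 2 weeks was 0.0052 and 0.0051 in TPM, and Egfl7 at 2 weeks was 0.000681 with no filter. With 1 mouse left out, Egfl7 at 2 weeks ran from -0.027 to 0.045 and Cldn5 at 6 weeks from -0.14 to 0.025. Log2 ratios to Cdh5 ran from -0.050 to 0.021 (Eng, 6 weeks), -0.0045 to 0.11 (Eng, 2 weeks), -0.038 to 0.15 (Cldn5, 2 weeks), -0.077 to 0.024 (Esam, 2 weeks), and between 6 and 2 weeks from -0.028 to 0.059 (Pecam1), -0.054 to 0.057 (Robo4) and -0.077 to 0.024 (Ecscr). The cause of these changes was not tested.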
